A study of Mus musculus with 32 samples.

Results

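The DOCK genes encode guanine exchange factors, proteins that switch on the small GTPases Rac and Cdc42 by exchanging GDP for GTP. The 9 genes described here (*Dock1*, *Dock2*, *Dock4*, *Dock5*, *Dock6*, *Dock8*, *Dock9*, *Dock10* and *Dock11*) were given as a list of symbols and found among the 23620 genes present in both expression tables. They were chosen with their measured IGF2BP3 peak numbers known, so the peak numbers below are a description and carry no test. *Dock3* was not on the list.

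DOCK proteins share a DHR2 domain that carries the exchange activity, and they fall into 4 subfamilies. DOCK-A (*Dock1*, *Dock2*, *Dock5*) and DOCK-B (*Dock3*, *Dock4*) proteins act on Rac with ELMO adaptors, DOCK-D (*Dock9*, *Dock10*, *Dock11*) proteins act mainly on Cdc42, and DOCK-C (such as *Dock6* and *Dock8*) proteins act on Rac, Cdc42 or both. In blood cells, *Dock2* drives Rac activation in migrating leukocytes and *Dock8* serves Cdc42 in lymphocytes and dendritic cells. IGF2BP3 is an oncofetal RNA-binding protein, and eCLIP maps the RNA to which it can be crosslinked.

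The series compared mouse leukemia cells that carry MLL-Af4 and either have IGF2BP3 (WT/MLL-Af4) or lack it (I3KO/MLL-Af4, a germline deletion that arose from Vav1-Cre leakiness). Lin− cells were lineage-depleted bone marrow cells transduced with the MSCV-MLL-FLAG-Af4 retrovirus, selected with G418 and cultured with cytokines. CD11b+ cells were bead-selected from splenic tumors of leukemic mice, although the eCLIP libraries of both cell types have names that start with bm. IGF2BP3 eCLIP was done in WT/MLL-Af4 cells, with 4 CD11b+ libraries (biological replicates 1 and 2, technical replicates 3 and 4) and 6 Lin− libraries (biological replicates 1, 2 and 3, technical replicates 4, 5 and 6), each with a size-matched input (smInput). The 12 RNA-seq libraries, 3 of each genotype and cell type, enter only as the authors' mean normalized count of each gene over both genotypes of a cell type. That mean was scaled separately in the 2 cell types, has no error, and cannot tell fewer expressing cells from less RNA per cell.

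The libraries held 4040 to 10054 smInput-filtered peaks each, with 35663 to 233695 reads in them. Sequencing depth is unknown, and the absence of a peak leaves binding undetermined. Limits given below cover counting error only. Lin− replicates 2 and 5 stood apart, with 59.5% and 57.3% of all their filtered peaks in introns against 75.9% to 81.1% in the other 4. Of the markers checked, the progenitor genes *Kit*, *Cd34* and *Flt3* had mean normalized counts of 6974, 9052 and 9396 in Lin− cells and 673, 1291 and 390 in CD11b+ cells. The monocyte and granule genes *Csf1r* and *Lyz2* stood at 15008 and 72146 in CD11b+ and at 7910 and 20990 in Lin− cells, whereas the granule gene *Mpo* stood at 84102 in CD11b+ and 101212 in Lin− cells. *Itgam*, which encodes CD11b itself, had a mean of 17 in CD11b+ cells. The 3 T cell and 2 NK cell markers were at or below 5.63 in CD11b+ cells, the 3 B cell markers lay between 99.3 and 146 there, and the erythroid gene *Hba-a1* reached 1268. The part of these other cells in the results was not tested.

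The regions that follow show the kinds of intronic sequence in which IGF2BP3 peaks of these genes lay, some of them hit in both cell types. The first set gives, for 7 of the 8 genes with a peak, the region hit in most biological libraries. Ties went to the region hit in most libraries of any kind. The *Dock2*, *Dock10* and *Dock11* regions were each hit in 3 biological libraries. Those of *Dock1*, *Dock5*, *Dock6* and *Dock9* were each hit in only 1, CD11b+ replicate 2, with 6 reads for *Dock6*. Sequences are read on the transcript strand from the GRCm38 reference. Capitals mark CA runs (the word ACACAC or its shifted form CACACA), GT runs (the word GTGTGT or its shifted form TGTGTG), and in *Dock2* the 12-letter word that was most frequent in its peak stretches.
Dock1 chr7:135008818-135008911 (plus strand): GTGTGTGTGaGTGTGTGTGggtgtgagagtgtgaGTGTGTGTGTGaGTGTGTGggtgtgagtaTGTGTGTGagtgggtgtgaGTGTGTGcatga
Dock2 chr11:34544813-34544885 (minus strand): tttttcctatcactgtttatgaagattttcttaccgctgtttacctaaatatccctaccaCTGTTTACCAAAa
Dock5 chr14:67897767-67897919 (minus strand): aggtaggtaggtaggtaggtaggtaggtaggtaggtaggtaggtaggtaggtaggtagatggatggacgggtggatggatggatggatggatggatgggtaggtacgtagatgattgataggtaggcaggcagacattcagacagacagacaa
Dock6 chr9:21836363-21836454 (minus strand): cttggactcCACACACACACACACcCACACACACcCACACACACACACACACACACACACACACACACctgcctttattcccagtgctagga
Dock9 chr14:121773116-121773319 (minus strand): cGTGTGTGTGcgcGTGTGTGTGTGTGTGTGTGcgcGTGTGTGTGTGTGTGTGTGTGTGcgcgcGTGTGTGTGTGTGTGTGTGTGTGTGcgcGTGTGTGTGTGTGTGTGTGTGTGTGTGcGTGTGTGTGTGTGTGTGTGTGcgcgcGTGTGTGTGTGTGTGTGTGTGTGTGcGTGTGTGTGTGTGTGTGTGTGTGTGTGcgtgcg
Dock10 chr1:80744006-80744108 (minus strand): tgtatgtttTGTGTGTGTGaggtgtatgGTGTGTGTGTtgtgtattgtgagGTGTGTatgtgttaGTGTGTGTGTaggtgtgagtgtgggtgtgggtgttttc
Dock11 chrX:35908843-35908909 (plus strand): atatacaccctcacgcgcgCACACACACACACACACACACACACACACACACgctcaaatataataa

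The second set shows regions that recurred in Lin− libraries at the ends of introns. Each line runs from at least 41 intron bases before the junction into the next exon, and capitals mark the AG that closes the intron.
Dock2 chr11:34695482-34695552 (minus strand), intron 15: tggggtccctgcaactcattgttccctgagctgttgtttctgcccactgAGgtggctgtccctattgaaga
Dock8 chr19:25121070-25121119 (plus strand), intron 15: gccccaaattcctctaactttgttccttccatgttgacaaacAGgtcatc
Dock8 chr19:25132001-25132069 (plus strand), intron 21: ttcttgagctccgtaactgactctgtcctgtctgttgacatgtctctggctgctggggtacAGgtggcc
Dock8 chr19:25182920-25182967 (plus strand), intron 40: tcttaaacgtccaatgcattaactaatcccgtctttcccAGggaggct
Dock10 chr1:80586444-80586504 (minus strand), intron 12: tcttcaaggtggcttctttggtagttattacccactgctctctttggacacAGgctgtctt
Dock11 chrX:36047308-36047363 (plus strand), intron 43: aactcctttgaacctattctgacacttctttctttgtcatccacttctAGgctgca

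The last line is a 240-base window from the longer of the *Dock2* peak stretches, with the 12-letter word in capitals.
Dock2 chr11:34683002-34683241 (minus strand), intron 22: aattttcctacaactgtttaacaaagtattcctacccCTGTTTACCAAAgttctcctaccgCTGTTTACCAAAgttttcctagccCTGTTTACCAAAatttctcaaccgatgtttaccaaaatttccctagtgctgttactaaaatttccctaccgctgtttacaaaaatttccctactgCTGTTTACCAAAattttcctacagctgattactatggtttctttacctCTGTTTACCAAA

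In every eCLIP library, every filtered DOCK peak had its midpoint in an intron. This held for all 239 CD11b+ and all 84 Lin− peaks. Across all genes, introns took 78.0% to 85.9% of the filtered peaks in CD11b+ libraries and 57.3% to 81.1% in Lin− libraries. The share was 100% ± 0 (SD) in the 2 CD11b+ and in the 3 Lin− biological replicates, so the difference was 0 (two-sided exact permutation test, p = 1). Counted by whole peaks in place of midpoints, the CD11b+ libraries stayed at 100%, while 58.3%, 80% and 60% of the peaks in the Lin− biological replicates lay wholly within an intron and the rest reached into an exon (difference 33.9 percentage points, exact p = 0.2).

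Within the introns, the counts of peaks near splice sites differed between the 2 cell types, less so in Lin− replicates 2 and 5. In Lin− cells, 47 of the 84 DOCK peaks lay within 50 bases of a splice site, 40 of them at the 3′ splice site, whereas 0 of 239 did in CD11b+ cells. A count of 0 among 239 independent peaks would allow a share of up to 1.26%. These peaks were not independent, since 171 of them lay in the *Dock2* repeat stretches described below and technical replicates were included. The true limit is therefore wider. The distance of 50 bases was chosen after the values were seen, and this count has no test. By library, the Lin− biological replicates had 10 of 12, 6 of 20 and 16 of 20 peaks this close, and the technical replicates 3 of 4, 3 of 13 and 9 of 15. Replicates 2 and 5 were the low ones in each set. Over all genes, 40.7% to 77.9% of intronic peaks in Lin− libraries and 11.2% to 20.1% in CD11b+ libraries lay within 50 bases of a splice site.

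The planned measure was the median distance of a library's intronic DOCK peaks to the nearest splice site of their gene. It was 5583 and 5588 bases in the CD11b+ biological replicates and 19.5, 3770 and 21.5 bases in the Lin− ones. The CD11b+ values lay above all Lin− values, but Lin− replicate 2 was much closer to them than replicates 1 and 3 were. The means were 5586 ± 3.89 bases (SD, n = 2) and 1270 ± 2165 bases (SD, n = 3), a difference of 4315 bases that did not pass the two-sided exact permutation test (p = 0.2, where 10 arrangements allow no p below 0.1). Without Lin− replicate 2 the difference was 5565 bases (exact p = 0.333). Of the peaks behind the 2 CD11b+ medians, 24 of 31 and 75 of 102 lay in the *Dock2* repeat stretches described below, which share 1 intron. Without these stretches, an alternative added after seeing the data, the medians were 2432 and 3716 bases in CD11b+ and 19.5, 2019 and 21.5 bases in Lin− cells, and the difference was 2387 bases.

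**Figure D1:**
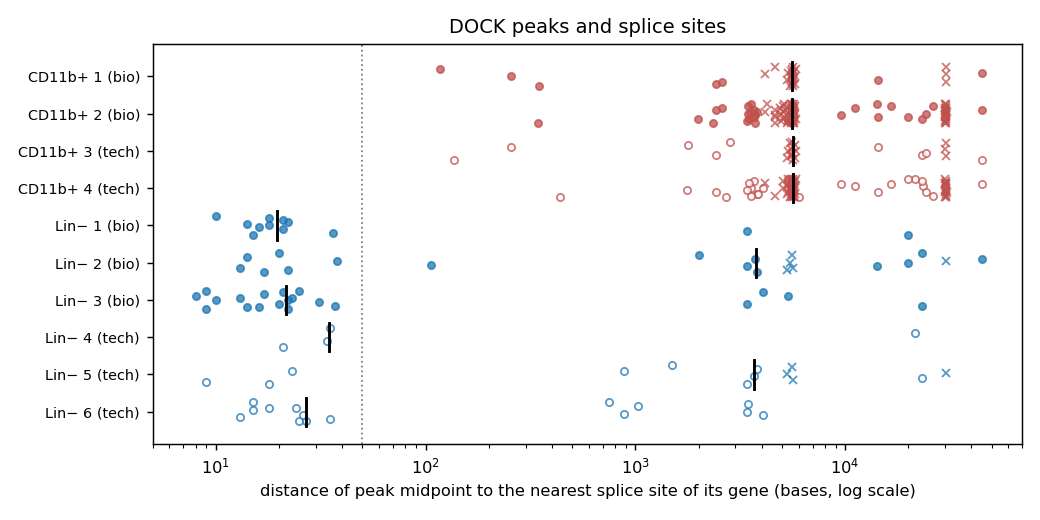
Each point is 1 filtered DOCK peak, placed by the distance of its midpoint to the nearest annotated splice site (bases, log scale), with 1 row per eCLIP library. Filled circles are biological and open circles technical replicates, crosses are peaks in the *Dock2* repeat stretches, black bars are library medians, and the dotted line marks 50 bases. The 4 CD11b+ rows hold no point left of the line, whereas 47 of the 84 Lin− points lie there.

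The CD11b+ peaks of the DOCK genes lay in repetitive sequence. A pair of stretches in *Dock2* held 171 of the 239 peaks (71.5%), and 66 of the other 68 fell on sequence that is at least 50% lower case (soft-masked as repeat) in the reference. In Lin− cells the same stretches held 9 of 84 peaks, and 30 of the other 75 were soft-masked. Across all genes the soft-masked share of peaks was 47.9% to 68.7% in CD11b+ and 18.4% to 28.2% in Lin− libraries.

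**Figure D2:**
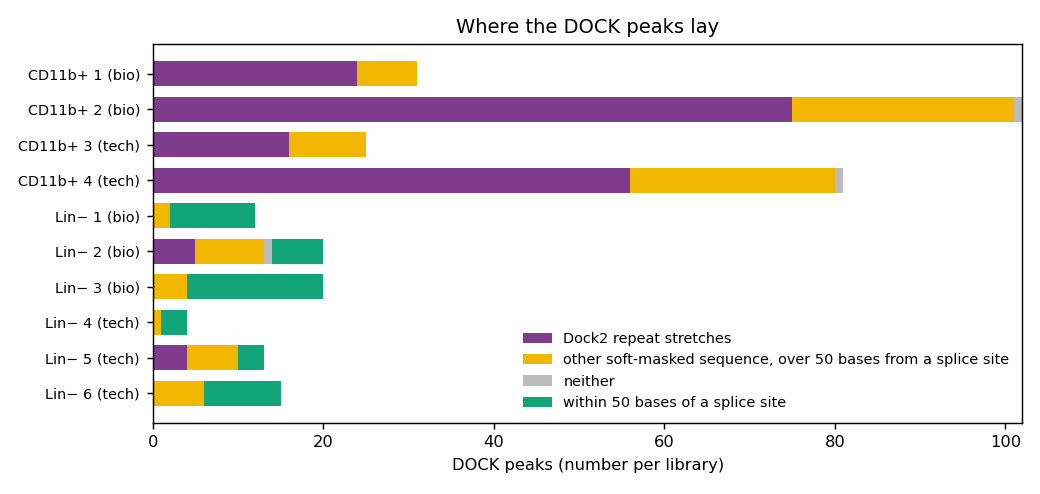
Bars give the number of filtered DOCK peaks in each eCLIP library, split into the 2 *Dock2* repeat stretches, other soft-masked sequence over 50 bases from a splice site, neither of these, and within 50 bases of a splice site. CD11b+ replicates 2 and 4 had 75 and 56 peaks in the stretches, and the Lin− replicates had 5 or fewer.

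*Dock2*, the Rac exchange factor of migrating leukocytes, spans 557 kb of chromosome 11 (chr11:34226815-34783892, minus strand) and had mean normalized counts of 8842 in CD11b+ and 9385 in Lin− cells. Its filtered peaks numbered 24 and 79 in the CD11b+ biological replicates and 18 and 62 in the technical ones. In Lin− cells they numbered 1, 6 and 7 in the biological and 1, 7 and 4 in the technical replicates. Every CD11b+ library was above every Lin− library, and CD11b+ replicates 2 and 4 were well above 1 and 3.

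Of its 183 CD11b+ peaks, 171 lay in the 2 stretches, both in intron 22, which is 172971 bases long. The longer one (chr11:34681679-34683359, 1681 bases) had its strongest peak 101.9 kb from the gene start, and held 21 and 55 peaks with 289 and 1363 reads in the CD11b+ biological replicates and 13 and 40 peaks with 210 and 737 reads in the technical ones. The shorter one (chr11:34544319-34544966, 648 bases) lay 136712 bases away and held 3 and 20 peaks with 132 and 587 reads, and 3 and 16 peaks in the technical replicates. In Lin− cells, replicate 2 had 4 peaks with 41 reads in the longer and 1 peak with 29 reads in the shorter stretch. Replicate 5 had 3 peaks with 17 reads and 1 peak with 7 reads, and the other 4 Lin− libraries had none. No smInput library had more than 1 *Dock2* peak.

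The stretches are tandem arrays. At a shift of 24 bases, 68.6% of the longer and 71.8% of the shorter one matched itself, the highest share at any shift from 2 to 60 bases. The word CTGTTTACCAAA occurred 18 times in the longer and 9 times in the shorter stretch, 49 times on the transcript strand of *Dock2* and 666 times on both strands of the genome. Only 1.13% and 5.86% of their bases are soft-masked in the reference. Of their 30-base words, 84.4% and 68.0% occur once in the genome, and the most repeated have 11 and 9 copies. The peaks there were short pieces, with median widths of 10 and 12 bases against 48 to 54 bases for all CD11b+ peaks of a library. The part of read placement within the arrays in the peak numbers was not tested.

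**Figure D3:**
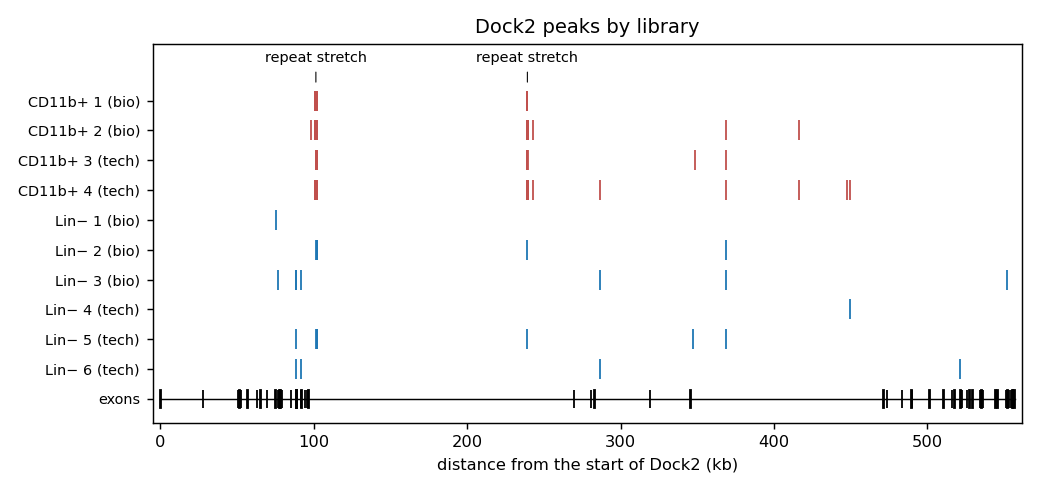
Tick marks show the *Dock2* peaks of each eCLIP library by distance from the gene start (kb), with the exons of the main transcript below. All 4 CD11b+ libraries and Lin− replicates 2 and 5 have peaks in both repeat stretches, while 10 of the 17 other Lin− peaks sit within 50 bases of a splice site.

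Outside the arrays, *Dock2* had 12 peaks in CD11b+ libraries and 17 in Lin− libraries. A soft-masked repeat in intron 27 (chr11:34415032-34415102) was hit in CD11b+ replicates 2, 3 and 4 and in Lin− replicates 2, 3 and 5. At the 3′ end of intron 15 a region (chr11:34695482-34695552) was hit in Lin− replicates 3, 5 and 6 with 4 to 17 reads. It is printed above and was hit in no CD11b+ library.

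*Dock8* (202899 bases, chr19:24999534-25202432) encodes a Cdc42 exchange factor of immune cells and had mean normalized counts of 10708 in CD11b+ and 15092 in Lin− cells. It had 3 and 13 filtered peaks in the CD11b+ biological and 2 and 9 in the technical replicates. The Lin− libraries had 6, 6 and 7 and then 2, 4 and 6. The cell types overlapped. The smInput libraries had 0 to 4 *Dock8* peaks, and the filter took between 0 and 4 of them from each eCLIP library.

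In CD11b+ cells, all 27 *Dock8* peaks were soft-masked and 20 held ACACAC or CACACA. In Lin− cells, 15 of 31 were soft-masked and 14 held 1 of these words, so such peaks were present in both cell types. Of the joined *Dock8* regions, 2 of 5 in CD11b+ and 2 of 12 in Lin− cells were hit in both. With no matching share over all genes, nothing is read from these counts. In Lin− cells, 17 of the 31 peaks lay within 50 bases of a 3′ splice site, and none of the 27 CD11b+ peaks did. The region before the end of intron 21 (chr19:25132001-25132055) was hit in all 3 Lin− biological replicates and in technical replicates 4 and 6, with 4 to 17 reads each, and in no CD11b+ library. The ends of introns 15 and 40 were each hit in 2 Lin− biological replicates, with 3 to 4 and 4 to 6 reads.

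Among the DOCK-D genes, *Dock10* had mean normalized counts of 4248 in CD11b+ and 11466 in Lin− cells. Filtered peaks numbered 3, 4, 2 and 3 in the CD11b+ libraries and 3, 3, 4, 1, 2 and 1 in the Lin− libraries, in replicate order. The counts overlapped but the places did not look alike. All 4 CD11b+ libraries hit a pair of GT repeats in intron 1, 44709 and 14278 bases from a splice site (chr1:80709785-80709858 and chr1:80744006-80744108), with 10 to 21 and 20 to 49 reads. Lin− replicate 2 was the only Lin− library with peaks there. In Lin− cells, 12 of the 14 peaks lay within 50 bases of a splice site, 8 at a 3′ and 4 at a 5′ site. The start of intron 15 (chr1:80578549-80578586) was hit in replicates 1, 2 and 5 with 3 to 20 reads, and the end of intron 12 (chr1:80586444-80586504) in replicates 1, 3 and 5 with 4 to 17 reads.

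*Dock11* had fewer peaks than *Dock10*, with 4 of 7 Lin− peaks within 50 bases of a 3′ splice site and 3 soft-masked. Its mean normalized counts were 2039 in CD11b+ and 6427 in Lin− cells, with 1, 2, 1 and 2 peaks in the CD11b+ and 1, 2, 1, 0, 0 and 3 in the Lin− libraries. A soft-masked region with GTGTGT or TGTGTG in intron 1 (chrX:35891428-35891493) was hit in all 4 CD11b+ libraries with 4 to 15 reads and in no Lin− library. A CA repeat in the same intron was hit in both cell types, in CD11b+ replicates 2 and 4 and Lin− replicates 1 and 2. The end of intron 43 (chrX:36047308-36047362) was hit only in Lin− replicates 2 and 6. *Dock9* had mean normalized counts of 518 and 454, with peaks in a GT repeat (chr14:121773116-121773319) of CD11b+ replicates 2, 3 and 4 and single Lin− peaks in replicates 2 and 3, at 106 and 9 bases from a splice site.

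Of the remaining DOCK-A genes, *Dock5*, which works beside *Dock2* in Rac activation, had mean normalized counts of 2593 and 2464. Its 5 CD11b+ peaks (0, 1, 1 and 3 by library) lay 435 bases or more from a splice site, and its 3 Lin− peaks, in replicates 1, 2 and 6, lay 13 or 14 bases from one. *Dock1*, the widely expressed family member that acts in cell engulfment, had mean normalized counts of 348 and 112. It had 1 peak each in CD11b+ replicates 2 and 4, in a GT-rich repeat of intron 29, and 1 peak of 4 bases in Lin− replicate 2.

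*Dock6*, a DOCK-C gene, had means of 249 and 314, a single peak of 6 reads in CD11b+ replicate 2 on a CA repeat, and no peak in Lin− cells. *Dock4*, a DOCK-B gene, had means of 126 and 390 and no peak in any of the 10 eCLIP libraries, before or after the smInput filter. Beside them, *Dock3* had 1 and 2 peaks in CD11b+ replicates 2 and 3 and none in Lin− cells, at mean normalized counts of 5.86 in CD11b+ and 65.5 in Lin− cells.

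**Figure D4:**
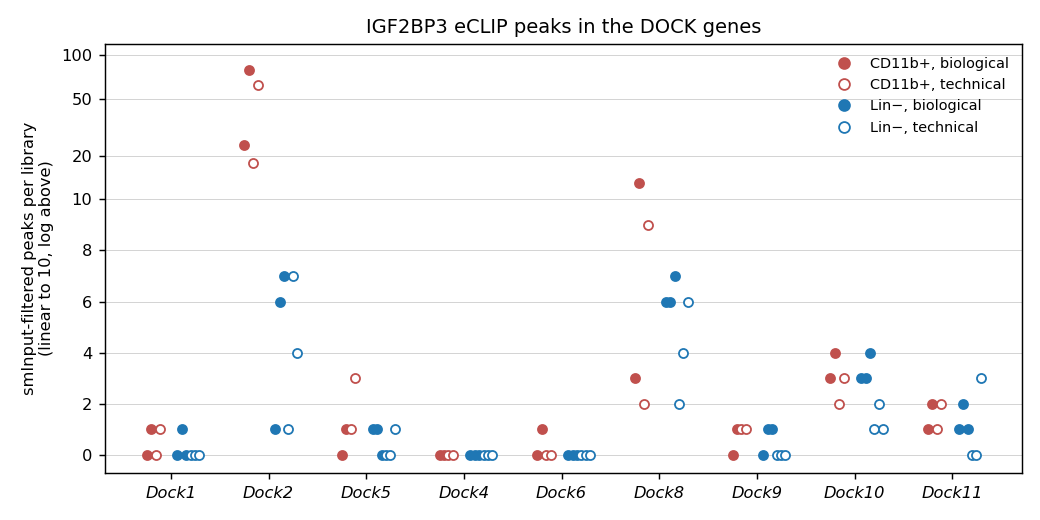
Points give the smInput-filtered peaks of each gene in each eCLIP library (linear to 10 and log above), filled for biological and open for technical replicates. *Dock2* is the only gene whose CD11b+ counts (18 to 79) all lie above its Lin− counts (1 to 7), and *Dock4* has none.

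In total, 8 of the 9 genes had at least 1 filtered peak in CD11b+ cells, where 25.6% of all 25887 genes in the table did, and 7 had one in Lin− cells, against 26.5% of 26560 genes. A region shared by 2 or more biological replicates was present in 4 of the 9 genes in CD11b+ cells (7.8% of all genes) and in 4 in Lin− cells (9.82%), in both cases *Dock2*, *Dock8*, *Dock10* and *Dock11*. The genes were chosen on such counts, and nothing is read from these shares.

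Overlapping peaks merged over libraries gave 65 DOCK regions in CD11b+ and 52 in Lin− cells. Since the arrays were cut into many adjacent pieces, peaks within 1 kb of each other were also joined, a step chosen after the data were seen, which left 27 and 44 regions. *Dock2* went from 43 to 10 in CD11b+ and from 16 to 12 in Lin− cells, and its place by number of regions among the 6635 CD11b+ genes with a peak went from 2 to 43. Of the joined regions, 10 of 27 in CD11b+ and 10 of 44 in Lin− cells were hit in both cell types. The matching share over all genes is not given here, and nothing is read from this overlap. In Lin− cells, 29 of the 44 joined regions had their strongest peak within 50 bases of a splice site, and in CD11b+ cells 0 of 27. That would allow a share of up to 11.1% if the 27 were independent, which regions of the same genes and libraries need not be.

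Long and highly expressed genes can collect more peaks, so each gene was set beside genes with a mean normalized count close to its own, in a window narrower than 1.5-fold on either side. In CD11b+ cells, all 227 genes of similar mean had fewer merged regions than *Dock2*, where the highest had 32, and 97.4% had fewer when peaks within 1 kb were joined. No gene of that mean was within 1.5-fold of its span. In Lin− cells 96.1% of 337 genes had fewer regions than *Dock2*, matched by mean alone. Only 2 genes were also within 1.5-fold of its span there, too few to compare, and these had fewer. For *Dock8*, 92.7% of 193 genes in CD11b+ and 89.6% of 154 genes in Lin− cells had fewer, and 75% of 8 and 88.2% of 17 when the gene span was also within 1.5-fold. With span matched and peaks within 1 kb joined, 50% of the 8 genes in CD11b+ cells had fewer than *Dock8*.

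For several other genes the share was lower with span matched. In CD11b+ cells the share of genes with fewer regions was 61.5% by mean alone and 25.5% with span for *Dock5*, 57% and 20.8% for *Dock9*, 67.1% and 31.8% for *Dock10*, and 50.7% and 16.9% for *Dock11*. Genes with an equal number did not count as having fewer. *Dock9*, with 1 region in CD11b+ cells, had 10 of 48 span-matched genes below it, 15 level and 23 above. Level there were 5 of 55 genes for *Dock5*, 1 of 22 for *Dock10* and 5 of 83 for *Dock11*. In Lin− cells the share with fewer was 58.3% for *Dock5*, 57.9% for *Dock10* and 41.2% for *Dock11* with span matched, and 87% for *Dock9*. *Dock1* stood above 63.2% of 19 genes in CD11b+ and 60% of 15 genes in Lin− cells. For *Dock4*, which had no peak, 13 of 23 genes of similar mean and span in CD11b+ cells and 12 of 25 in Lin− cells had at least 1.

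**Figure D5:**
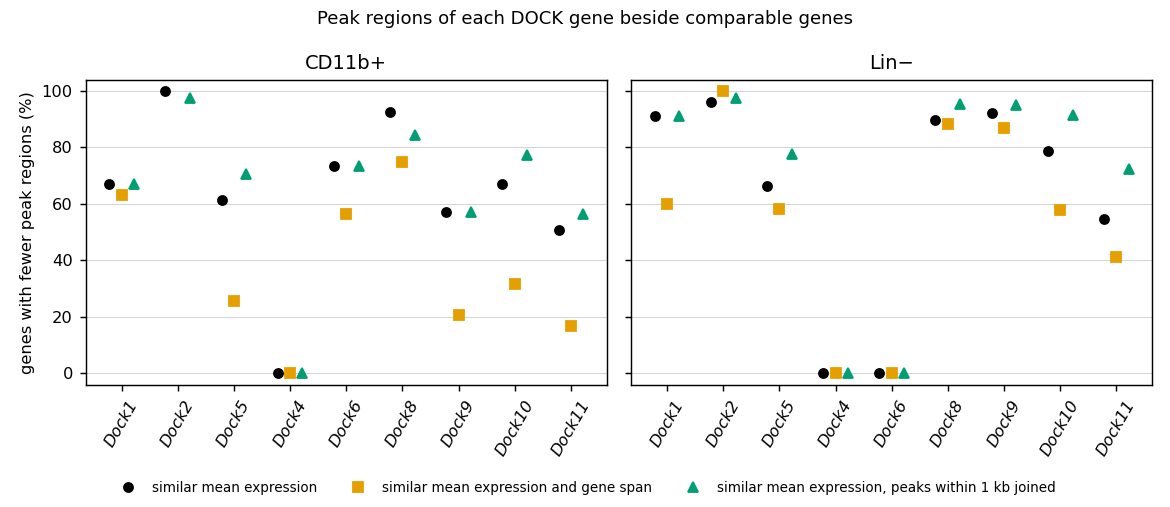
Each symbol gives the percent of comparable genes with fewer peak regions than the DOCK gene named below it, for genes of similar mean expression (circles), of similar mean expression and gene span (squares), and of similar mean expression with peaks within 1 kb joined (triangles). *Dock2* is at 100 and 97.4 in CD11b+ cells and has no square there, since no gene of similar mean expression had a similar span. Its square in Lin− cells rests on 2 genes.

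The words ACACAC and CACACA, short forms of the CA-rich element of IGF2BP3, were searched on the transcript strand inside each peak. They overlap each other, so a peak counted once. In the CD11b+ biological replicates, 3.23% and 14.7% of DOCK peaks held 1 of them, and in the Lin− ones 16.7%, 20.0% and 15.0%. The CD11b+ values lay below the Lin− values. The means were 8.97% ± 8.12 (SD, n = 2) and 17.2% ± 2.55 (SD, n = 3), a difference of -8.26 percentage points (two-sided exact permutation test, p = 0.1, the smallest p that 3 against 2 replicates allow). None of the peaks in the *Dock2* arrays held either word. Without them, an alternative added after seeing the data, the shares were 14.3% and 55.6% in CD11b+ and 16.7%, 26.7% and 15.0% in Lin− cells, a difference of 15.5 percentage points (exact p = 0.7). Over all genes the words were in 8.9% to 23.7% of CD11b+ and 4.65% to 12% of Lin− peaks.

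The complementary GT repeats were counted after they had been seen in the sequences. GTGTGT or TGTGTG was in 23 of the 239 CD11b+ and 3 of the 84 Lin− DOCK peaks, and in 20.3% to 31.3% of all CD11b+ and 6.25% to 8.04% of all Lin− filtered peaks. Of the 239 CD11b+ peaks, 171 lay in the *Dock2* arrays, while most of the 23 peaks with a GT word lay in other genes. *Dock2* had a GT word in 2 of its 183 CD11b+ peaks, *Dock8* in 3 of 27 and *Dock10* in 9 of 12. The count of 23 in 239 is therefore not read against the share over all genes.

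Genes that act with the DOCK proteins also held peaks, beside shares of 25.6% in CD11b+ and 26.5% in Lin− cells over all genes. The lists were not matched for expression or length, and nothing is read from their counts. Of 8 partner genes, 5 had a peak in CD11b+ and 6 in Lin− cells, led by *Elmo1*, the ELMO adaptor of DOCK-A proteins, with 21 and 17 merged regions, and followed by *Elmo2* (8) in CD11b+ and *Crk* (4) in Lin− cells. Of 7 GTPase genes, 6 and 5 had a peak, with *Cdc42* and *Rac1* at 2 regions each in CD11b+ and *Rhoq* and *Rac2* at 4 and 3 in Lin− cells. Of 16 other Rac and Cdc42 exchange factors, 15 and 14 had a peak, with *Fgd4* (19) and *Prex1* (17) highest in CD11b+ and *Sos2* (8) and *Fgd3* (7) in Lin− cells.

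Of 17 effectors, 11 and 13 had a peak (again beside 25.6% and 26.5% of all genes), and *Iqgap1* (13 and 9 regions) and *Wasf2* (8 and 8) led in both cell types. All 8 GTPase-activating proteins had a peak in both cell types, with *Arhgap15* (13) and *Srgap3* (5) leading in CD11b+ and *Arhgap17* (10) and *Abr* (9) in Lin− cells. The position seen in the DOCK genes was not uniform among them. *Arhgap17* had 19 of 19 and *Rac2* 8 of 9 Lin− peaks in introns within 50 bases of a splice site, while *Elmo1* had 4 of 46 and *Rhoq* 0 of 16. In CD11b+ cells, *Elmo1*, *Fgd4* and *Prex1* had 0 of 35, 0 of 33 and 0 of 32, while *Wasf2* had 2 of 14, *Elmo2* 1 of 12 and *Iqgap1* 1 of 33.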

How the data were processed

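Peaks came from IGF2BP3 eCLIP and smInput libraries and expression from RNA-seq. According to the paper's methods and the file headers, the authors mapped reads to mm10 (STAR 2.5.3a in the submitters' processing notes), called peaks per library with CLIPper, deposited a p-value of at most 0.05 with each peak, and removed peaks overlapping smInput peaks. Inputs and eCLIP libraries differ in deduplication and caller settings. The last number of a peak name was read as its reads. For RNA-seq, the authors deposited the mean normalized count (a DESeq2 signal scaled by size factors, per cell type). The tables also hold the authors' genotype comparison and peak marks, which were not used.

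Peaks were assigned by gene ID, read with pandas 2.3.3, pysam 0.24.0 and SciPy 1.17.1 under Python 3.11.15, and placed on the GENCODE M21 basic annotation. Regions overlapping by 1 base were merged. Groups followed the labels, and technical replicates entered no test. Tests were two-sided exact permutation tests over biological replicates, whose p-values measure the spread between these samples. Region counting, distances and the permutation test were tried on simulated peaks that lay well apart, unlike the adjacent pieces in the arrays. The comparison with genes of similar mean was not simulated. The genes, lists and named regions were chosen with earlier results of these data known. Named were all 9 genes, *Dock3*, the 2 genes with most regions per list and cell type, and 1 region per gene. Some items that this rule names are not reported here. The splice-site and array sequences, the 50-base class, the 1 kb joining and the GT words were added after values were seen. The same holds for the other regions given by coordinate. Dixon's criterion was applied to the 4 CD11b+ and 6 Lin− libraries. Protein sequences were not used here.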

Additional observations from a re-analysis of the deposited data

Results flagged for a closer look

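The reads in the *Dock2* repeat stretches of Lin− cells had 1 library far from the others. Replicate 2 had 70 reads there, replicate 5 had 24 and the other 4 libraries had 0. The gap to the nearest library was 0.657 of the whole range, above the critical value of 0.625 for 6 libraries. Chance places about 1 in 20 groups this way, and 24 groups were examined. With 4 of the 6 values at 0, that rate need not hold here.

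Signal in the smInput libraries, which the comparisons use only through the filter, stood at 1 spot in *Dock1* and 1 in *Dock4*. In intron 49 of *Dock1* (chr7:135163486-135163494, 9 bases) all 10 inputs had peaks, with 18 to 4018 reads and a median of 656. All 10 eCLIP libraries had a peak there before the filter, with 11 to 93 reads, and none after it. In intron 1 of *Dock4* (chr12:40538946-40538963) all 10 inputs had a peak with 3 to 114 reads, and no eCLIP library had one. No other annotated gene overlaps either spot. The cause was not tested.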

How the results depend on the processing

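In designs of 3 against 2 libraries the exact permutation tests cannot give p below 0.1, so no p here speaks for stability. The difference in distance kept its direction under every alternative run, and was 3690 to 5565 bases with 1 biological replicate left out and 2387 bases without the *Dock2* stretches. The intronic share differed by 0 except by whole peaks (33.9 points, exact p = 0.2), and by 0 to 0 with 1 replicate left out. The difference in ACACAC or CACACA share was -14 to -2.52 points with 1 left out, and it reversed to 15.5 without the *Dock2* stretches and to 6.78 with 1 peak per stretch and library.

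With the replicate block, which pairs the 2 shared numbers, the differences were 0, -9.37 points and 3691 bases (exact sign-flip permutation p = 1, 0.5 and 0.5), and no call changed. The labels do not say that the numbers mark a shared animal or day.

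Region counts moved most. The 65 merged CD11b+ regions became 187 when an overlap of 20 bases was required, 21 when 2 biological replicates had to share them, and 27 with peaks within 1 kb joined. Biological replicates alone gave 79, and leaving out 1 of these gave 31 (without replicate 2) to 102 (without replicate 1). The 52 Lin− regions became 27 at a deposited p-value below 0.001, and 8 when shared by 2 biological replicates. Biological replicates alone gave 42, and leaving out 1 of these gave 27 to 37 (28 without replicate 2, 27 without replicate 3). The genes with a peak went from 8 to 4 in CD11b+ and from 7 to 4 in Lin− cells when sharing was required, and biological replicates alone gave 8 and 7, with 4 to 8 and 6 to 7 when 1 of these was left out (4 without CD11b+ replicate 2). DOCK peaks per 1000 filtered peaks were 6.89 in CD11b+ cells, 3.64 to 10.1 with 1 replicate left out and 1.75 without the *Dock2* stretches, and 1.97 and 1.81 to 2.15 in Lin− cells. The joining, the single peak per stretch and the removal of the stretches were chosen after seeing the data. Depth is unknown. The causes were not tested.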

Other observations

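The 12-letter word of the *Dock2* arrays, CTGTTTACCAAA, lay inside 33 of the 74378 filtered peaks searched over all libraries. Of these, 13 belonged to *Dock2* and the rest to 7 other genes. Peaks in the longer and shorter arrays had median widths of 10 and 12 bases, so many were too short to hold the whole word.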
